A study of Mus musculus with 11 samples.

Results

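The genes described here are 200 mouse genes annotated to mitosis, measured in stem and progenitor cells of the bone marrow with and without Klf5. They were taken from the array annotation: every row whose Gene Ontology biological process column held the word mitosis and did not hold DNA replication. This gave 225 rows of 28944 tested rows, and where a gene had several rows (15 genes), the row of highest mean signal stood for it, so that 200 of 22082 genes with a symbol were members. The rule itself uses the annotation and, between rows of 1 gene, the mean signal over all arrays. The annotation is broad: 203 of the 225 rows carried the plain term mitosis, and the others carried a term for its regulation, through which ribosomal protein genes such as Rps6 and signalling genes such as Tnf came in. The exclusion of DNA replication removed 7 genes, among them Cdk1, the kinase that drives entry into mitosis.

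Mitosis begins when the kinase Cdk1, bound to cyclin B, phosphorylates chromatin, nuclear envelope and spindle proteins, helped by the Polo and Aurora kinases. Condensin compacts the chromosomes, cohesin holds sister chromatids together, and kinetochores attach them to spindle microtubules. The spindle checkpoint restrains the anaphase-promoting complex until all kinetochores are attached. That ubiquitin ligase then marks cyclin B and securin for destruction, which starts anaphase and the exit from mitosis. Transcripts of many of these genes accumulate in G2 and M phase, so their summed level is often read as a measure of how many cells of a sample are dividing. Long-term stem cells are mostly quiescent, whereas the multipotent progenitors sorted with them cycle.

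The cells were LSK cells (lineage-negative, Sca-1-positive, Kit-positive bone marrow cells), sorted by flow cytometry from mice of the C57BL/6 strain. The 5 knockout samples (KO) came from Klf5 knockout mice and the 6 wild-type samples (WT) from mice with intact Klf5, and the labels name the Mx1-Cre transgene (spelled MxlCre there) for both groups, so the wild-type mice carry the recombinase too. The Mx1 promoter responds to interferon and is active in several tissues besides blood, and the labels give neither the induction nor the ages. Total RNA was hybridised to Affymetrix Mouse Gene 1.0 ST arrays, and the log2 signals were deposited in a table of 9 arrays (KO replicates 2 to 5 and WT replicates 2 to 6) and a table of 2 arrays (KO replicate 1 and WT replicate 1), normalized apart. The question posed by the design is what the loss of Klf5, a zinc-finger transcription factor, does to gene expression in these cells. The labels do not tie arrays to animals. A p-value here therefore reflects only how far these samples scatter, and some of that scatter may be technical.

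The arrays carried the defining markers of LSK cells, and several arrays differed in other markers that touch the results. All 12 stem and progenitor markers, Kit and Cd34 among them, lay above the negative-control median on all 9 arrays. Of 12 B-cell markers, 6 lay above it on all 9 arrays and 1, Ms4a1, lay below it on all of them. Klf5 itself read 6.72, 6.58, 6.76 and 6.69 in KO replicates 2 to 5, against 6.77, 6.98, 6.94, 6.98 and 6.77 in WT replicates 2 to 6, a difference of -0.20 (95% interval -0.37 to -0.03, limma adjusted p 0.916). The groups did not overlap, although the highest KO value, 6.76, lay just under the lowest WT value, 6.77. The labels do not say which exons were deleted, so this row is a weak check of genotype. Adult β-globin Hbb-b1 was far higher on KO replicates 2 and 5 and WT replicates 2 and 6 (9.08 to 10.63) than on the other 5 arrays (6.62 to 7.46). KO replicates 2 and 5 and WT replicate 6 showed both Xist and Y-linked signal, KO replicates 3 and 4 and WT replicate 5 showed Xist alone, and WT replicates 2, 3 and 4 Y-linked signal alone.

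Of the 200 members, 177 lay above the median of the negative-control probes on all 9 arrays and 5 below it on all of them. These 5 include genes of the germ line, such as Sycp3 of the meiotic chromosome axis and Wee2, the oocyte kinase, and Ccna1, the germ-cell cyclin. Signals of different rows are not comparable as transcript amounts, and the levels below are compared only between arrays.

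To show what the regulatory sequence of these genes looks like, the RefSeq promoter windows (250 bases before each annotated start, GRCm38.p6) were searched on both strands for the cell cycle homology region, TTTGAA or TTTAAA, through which cell cycle repressor and activator complexes reach late cell cycle genes, and for the NF-Y box, CCAAT. A window was found for 158 members (187 windows). The homology region stood in 46 of these windows (24.6%), against 25.2% of all 32851 windows. The NF-Y box stood in 88 (47.1%), against 33.9% of all windows, and both stood in 28 (15.0%), against 8.78%. Among the 17 windows of the core genes listed in the methods, 7 (41.2%) held both. The following 4 windows are printed as examples of core genes that carry both elements close to the start, as Kif11 also did. The 4 are cyclin B1 (chr13:100786487-100786636, minus strand), the checkpoint target Cdc20 (chr4:118437344-118437493, minus strand), Polo-like kinase 1 (chr7:122159285-122159434, plus strand) and the ubiquitin-conjugating enzyme Ube2c (chr2:164769779-164769928, plus strand). Each is the 150 bases just before the start, 5′ to 3′ on the gene's strand, with the matched letters of either element in capitals.
Ccnb1: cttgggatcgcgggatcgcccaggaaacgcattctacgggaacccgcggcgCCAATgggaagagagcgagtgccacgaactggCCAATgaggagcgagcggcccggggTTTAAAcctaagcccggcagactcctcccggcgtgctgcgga
Cdc20: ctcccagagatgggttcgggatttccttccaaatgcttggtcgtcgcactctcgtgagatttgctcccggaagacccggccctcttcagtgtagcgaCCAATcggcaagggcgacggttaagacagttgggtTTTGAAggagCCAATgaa
Plk1: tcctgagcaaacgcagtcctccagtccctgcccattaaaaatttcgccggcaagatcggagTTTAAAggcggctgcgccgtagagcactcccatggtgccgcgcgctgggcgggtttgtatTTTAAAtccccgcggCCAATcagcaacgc
Ube2c: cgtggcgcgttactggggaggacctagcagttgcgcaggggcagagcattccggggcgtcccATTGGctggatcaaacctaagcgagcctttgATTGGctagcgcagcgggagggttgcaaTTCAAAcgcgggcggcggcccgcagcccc
In cyclin B1 the homology region (TTTAAA) began 42 bases before the start and in Cdc20 (TTTGAA) 18 bases before it. In Ube2c it was read on the opposite strand and began 29 bases before the start, and its 2 NF-Y boxes appear as ATTGG. The window of Plk1 held 2 homology regions and 1 NF-Y box, which began 14 bases before the start. A match of letters is a description and not evidence of binding. Members with the homology region (44 genes) and without it (114 genes) had the same median KO minus WT difference to 2 decimals, 0.04, with 29 and 65 genes higher in KO.

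The mitosis genes as a whole were at close to the same level in both genotypes, with the order of the arrays cutting across the groups. The mean log2 signal over all 200 members was 7.63, 7.75, 7.70 and 7.75 in KO replicates 2, 3, 4 and 5. In WT replicates 2 to 6 it was 7.75, 7.60, 7.54, 7.49 and 7.78. The KO arrays therefore lay within the range of the WT arrays, whose highest 2 values were the arrays of high Hbb-b1 and whose lowest 3 were not. The group means were 7.71 ± 0.05 in KO (SD, n = 4) and 7.63 ± 0.13 in WT (SD, n = 5). Their difference, 0.07, was smaller than the pooled SD of 0.10. It was 0.04 without WT replicate 5 and 0.11 without WT replicate 6. In sorted cells measured in bulk, fewer dividing cells and less mitotic RNA per cell cannot be told apart.

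**Figure D1:**
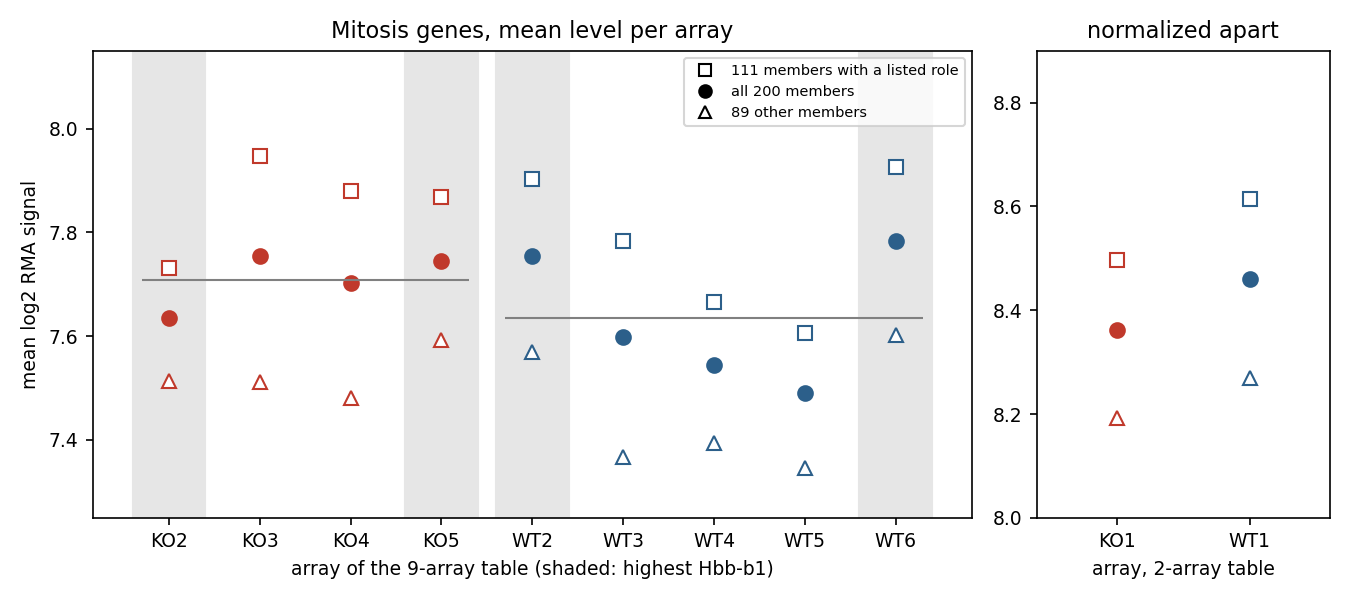
Mean log2 RMA signal of the mitosis genes on each array, with all 200 members as filled circles, the 111 members with a listed role as squares and the other 89 as triangles. The lines are the group means over all members (7.71 in KO, 7.63 in WT), grey bands mark the 4 arrays of highest Hbb-b1, and the right panel shows the 2 separately normalized arrays.

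No mitosis gene passed the test between genotypes. With limma, 0 of 200 members had an adjusted p under 0.05 (lowest 0.916), and the background was the same: 0 of 28944 tested rows, 0.0%. At an unadjusted p under 0.05 there were 5 members (2.5%), against 4.08% of all rows. All 5 were higher in KO, a share of 2.5% against a background of 1.45% of rows, and 0 were lower, against 2.63%. That direction depended on the processing: 4 were higher and 3 lower after quantile normalization, 2 and 2 with array weights, 1 and 1 by the methods' t-test, and 0 and 2 with all 11 arrays and a table term. No member had all KO arrays above all WT arrays, a pattern shown by 0.259% of rows, and 1 member (0.5%) had all KO arrays below all WT arrays, against 0.726%. These shares lie near the background and single out no member.

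The direction of the small differences leaned to the knockout. The mean was higher in KO for 123 of 200 members (61.5%), against 44.1% of all tested rows. The median member difference was 0.04, against -0.02 over all rows, and the differences ran from -0.36 to 0.95. For 122 members (61.0%) the 95% interval excluded a change of 1.5-fold in either direction, against 79.5% of all rows. Leaving out a single array turned the sign of the difference in 84 of 200 members, and of the 116 whose sign held, 76 were higher in KO and 40 lower. The members also varied more within genotypes than most rows, with a median residual SD of 0.27 against 0.18. Members are not independent of each other, and the lean is given as a count without a test.

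**Figure D2:**
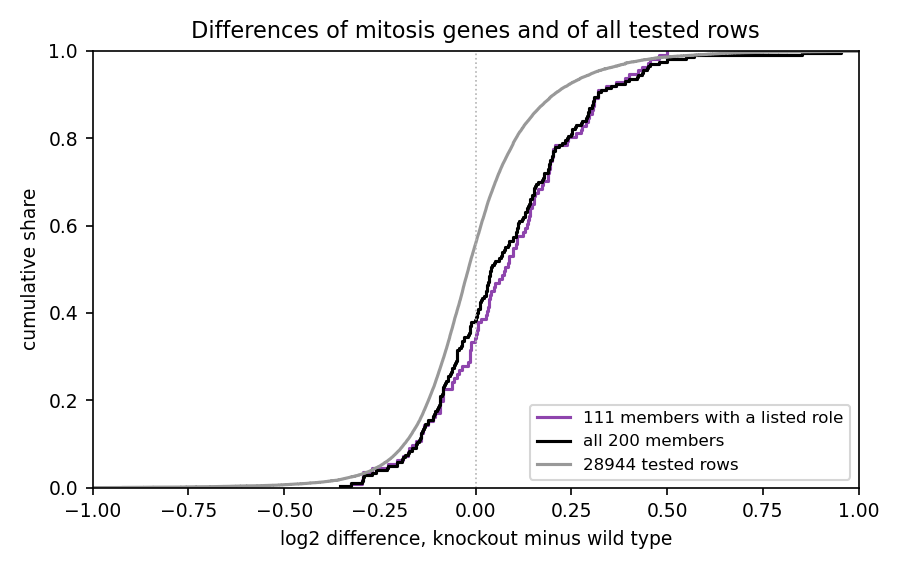
Cumulative share of genes against the KO minus WT log2 difference, for the 111 members with a listed role, all 200 members and all 28944 tested rows. The member curves lie to the right of the grey curve for most of their length, with medians of 0.04 (all members) and -0.02 (all rows).

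Among the 18 cyclins, mitotic kinases and Cdc25 phosphatases, 11 had the higher mean in KO and 7 in WT, with a median difference of 0.02. Ccnb1, the cyclin of the Cdk1 complex, read 8.63, 9.22, 8.59 and 8.91 in KO replicates 2 to 5, against 8.29, 9.26, 9.23, 8.63 and 8.97 in WT replicates 2 to 6. The KO range lay inside the WT range, with a difference of -0.04 ± 0.22 (SE), and the other 2 rows of the gene gave 0.05 and 0.09. Ccnb2, its partner cyclin, read 8.41, 9.48, 9.44 and 9.18 in KO, against 9.31, 9.41, 9.91, 8.76 and 9.40 in WT. KO replicate 2 was the lowest of the 9 arrays and WT replicate 4 the highest, and the difference of -0.23 was below its SE of 0.26.

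Aurka, the kinase that matures centrosomes and builds the spindle poles, read 6.79, 8.38, 8.42 and 7.71 in KO and 7.80, 7.76, 7.84, 7.23 and 7.73 in WT. Both extremes were KO arrays: replicate 2 lay below every WT array, and replicates 3 and 4 lay above every one. The difference was 0.15 with a 95% interval from -0.55 to 0.86. Plk1, the Polo kinase that acts at centrosomes, kinetochores and the midzone, read 6.86, 6.95, 7.23 and 6.70 in KO, against 6.95, 6.97, 6.99, 6.79 and 6.95 in WT. The WT arrays lay close together inside the KO range, and the difference was 0.01 (95% interval -0.23 to 0.24). Aurkb, the kinase of the chromosomal passenger complex, had the identical deposited value 7.73 on KO replicates 3, 4 and 5 and WT replicate 2, with 7.80 on KO replicate 2. The remaining WT arrays read 8.36, 7.24, 7.17 and 7.88, on both sides of it, for a difference of 0.07. Such repeated values are common in the table: 86 of 200 members (43.0%) had the same value on 2 or more of the 9 arrays, against 57.5% of all rows.

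**Figure D3:**
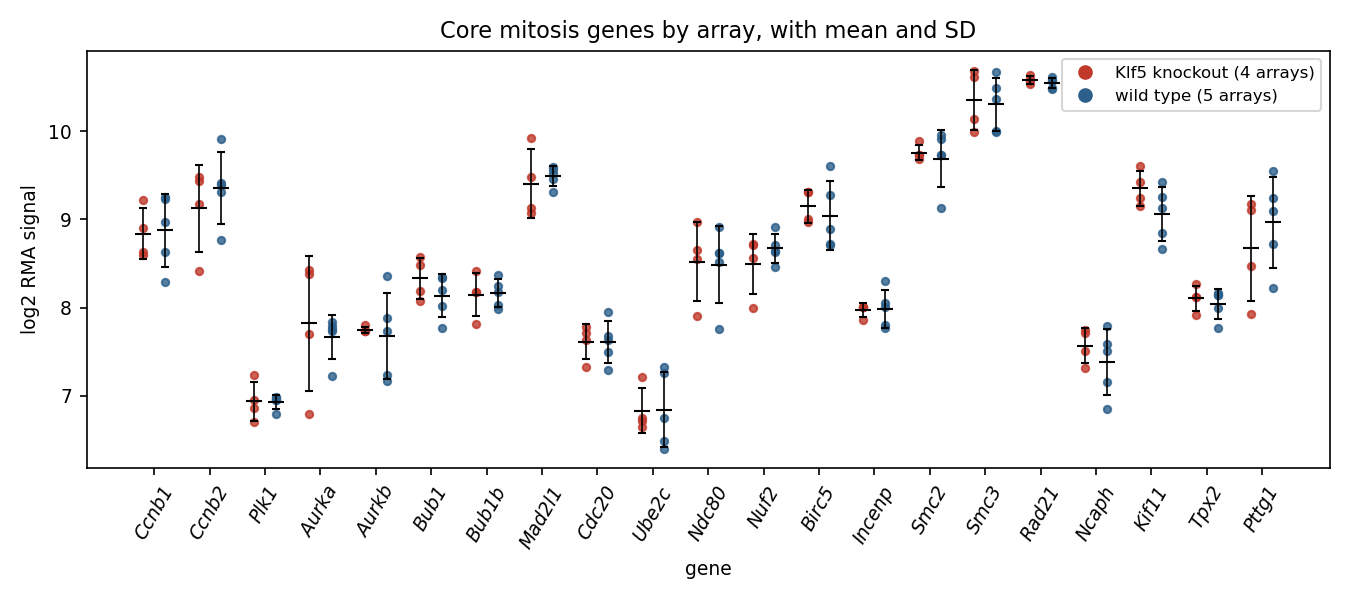
Log2 RMA signal of the 21 core mitosis genes that are members, with a point for each array of the 9-array table and the mean and SD of each genotype, KO left of WT within each gene. The KO and WT ranges overlap for every gene drawn, Kif11 included (9.15 to 9.60 in KO, 8.66 to 9.43 in WT).

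In the spindle checkpoint, which delays anaphase, 3 of 7 members had the higher mean in KO (median difference -0.02). Bub1, the checkpoint kinase at kinetochores, read 8.19, 8.48, 8.57 and 8.07 in KO, against 8.34, 7.77, 8.02, 8.20 and 8.34 in WT, with overlapping ranges and a difference of 0.19 ± 0.15 (SE). Mad2l1, which binds and holds Cdc20, read 9.07, 9.49, 9.93 and 9.13 in KO, against 9.31, 9.53, 9.59, 9.57 and 9.46 in WT. The WT arrays were again the tighter group, and 2 KO arrays lay below them and 1 above. Bub1b, its partner in the checkpoint complex, differed by -0.02 (95% interval -0.30 to 0.27).

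The anaphase-promoting complex showed the largest median difference of the 9 roles, 0.15, with 10 of 15 members higher in KO, and none of the 15 had an unadjusted p under 0.05. Fbxo5, the inhibitor Emi1 that holds the complex off until mitosis, read 9.13, 8.83, 9.23 and 8.64 in KO, against 9.32, 8.42, 7.99, 7.56 and 9.21 in WT. WT replicates 3, 4 and 5 lay below all KO arrays while WT replicate 2 was the highest array and WT replicate 6 lay within the KO range, and the difference was 0.46 ± 0.35 (SE), or 0.22 without WT replicate 5. Cdc23, a scaffold subunit, also had WT replicates 3, 4 and 5 below all KO arrays, with 8.40, 8.77, 8.54 and 8.66 in KO and 8.66, 8.13, 7.81, 7.46 and 8.77 in WT (difference 0.42, or 0.25 without WT replicate 5). The activator Cdc20 and the ubiquitin-conjugating enzyme Ube2c, whose promoters are printed above, lay near 0: their differences were 0.00 (95% interval -0.31 to 0.32) and -0.01 (95% interval -0.50 to 0.48). Among the other subunits Anapc13 differed by 0.37 (0.12 without WT replicate 3), Anapc2 by 0.32 and Anapc10 by -0.11.

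Of 23 kinetochore and centromere genes, 13 had the higher mean in KO (median difference 0.04). An unadjusted p under 0.05 was found for 1 (4.35%, against 4.08% of all rows). That gene, Zw10, which recruits dynein to unattached kinetochores, read 7.26, 7.24, 7.24 and 7.02 in KO, against 6.85, 7.05, 6.54, 6.31 and 7.21 in WT. WT replicates 2, 4 and 5 were below all KO arrays, and WT replicates 3 and 6 lay within their range. The difference was 0.40 ± 0.18 (SE, unadjusted p 0.0472, limma adjusted p 0.916). Kntc1, from the same complex, differed by 0.30 (unadjusted p 0.0527) and Zwilch, a further subunit, by 0.45, or 0.20 without KO replicate 4. Cenph, a centromere protein, read 8.86, 8.98, 8.68 and 9.34 in KO, against 9.14, 8.41, 8.04, 7.54 and 9.29 in WT, again with WT replicates 3 to 5 lowest (difference 0.48, or 0.24 without WT replicate 5). The 4 subunits of the Ndc80 complex, which grips microtubules, had other values: Ndc80 differed by 0.04, Spc24 by -0.02, Nuf2 by -0.18 and Spc25 by -0.30 (unadjusted p 0.078).

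Of the 6 genes grouped with the chromosomal passengers, 3 had the higher mean in KO. Birc5, or survivin, read 8.97, 9.31, 9.31 and 9.01 in KO, against 8.71, 8.89, 8.72, 9.60 and 9.28 in WT, where WT replicate 5 was the highest array. The ranges overlapped, with a difference of 0.11 ± 0.19 (SE). Incenp, the scaffold of the passenger complex, differed by -0.01 (95% interval -0.26 to 0.24).

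Among cohesin subunits and the securin gene, 7 of 8 had the higher mean in KO, with a median difference of 0.12. Rad21, the cohesin ring subunit that separase cleaves, read 10.53, 10.59, 10.64 and 10.56 in KO, against 10.61, 10.48, 10.58, 10.49 and 10.56 in WT, with a difference of 0.04 (95% interval -0.10 to 0.17). Its 9 values span a narrow range, and the interval excludes a change of 1.5-fold. Smc3, a ring subunit, and Smc1a, its partner, differed by 0.05 and 0.14. For both, KO replicates 2 and 5 and WT replicate 2 were the 3 highest arrays, all of high Hbb-b1. The exception among the 8 was Pttg1, which encodes securin, with 7.92, 8.47, 9.11 and 9.18 in KO and 9.09, 8.22, 9.55, 8.72 and 9.25 in WT. Its arrays ran over more than 1 log2 unit within each genotype, and the difference was -0.30 ± 0.32 (SE).

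Of the 6 condensin genes, 4 had the higher mean in KO (median difference 0.05). Smc2, a core ATPase of condensin, differed by 0.07, Ncaph, the subunit that closes its ring, by 0.19, and Ncapd3, of condensin II, by -0.17 (95% interval -0.36 to 0.03).

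Of the 23 spindle motors and microtubule proteins, 18 had the higher mean in KO (78.3%, against 44.1% of all rows). The median difference was 0.10, and the share was higher for the cohesin and securin genes (87.5%) and the cytokinesis genes (80.0%). Kif11, the kinesin that pushes spindle poles apart, read 9.25, 9.60, 9.42 and 9.15 in KO, against 9.25, 8.85, 8.66, 9.13 and 9.43 in WT. WT replicates 3, 4 and 5 were below all KO arrays, WT replicates 2 and 6 were within the KO range, and the difference was 0.29 (95% interval -0.07 to 0.66). Nedd1, which brings the microtubule nucleator γ-tubulin to the centrosome, read 8.04, 7.54, 7.54 and 7.70 in KO, against 7.75, 7.06, 7.09, 6.55 and 7.56 in WT (difference 0.50, unadjusted p 0.0573). WT replicates 3, 4 and 5 were again below all KO arrays. On the other side, Nusap1, a microtubule-bundling protein, read 8.08, 8.69, 8.43 and 8.44 in KO, against 8.73, 8.37, 8.88, 8.70 and 8.74 in WT. All WT arrays but replicate 3 lay above every KO array, and the difference was -0.27 ± 0.14 (SE, unadjusted p 0.0764), or -0.16 without KO replicate 2. Tpx2, which activates Aurora A on the spindle, differed by 0.06 (95% interval -0.18 to 0.30), and Haus4, of the augmin complex, by -0.21. The row for Kifc5b cannot be told apart from its near-identical relative Kifc1, the symbol that the array annotation gives it.

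Of the 5 cytokinesis genes, 4 had the higher mean in KO (median difference 0.14), with Anln, the anillin of the contractile ring, at 0.17 and Rcc2 at -0.19.

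**Figure D4:**
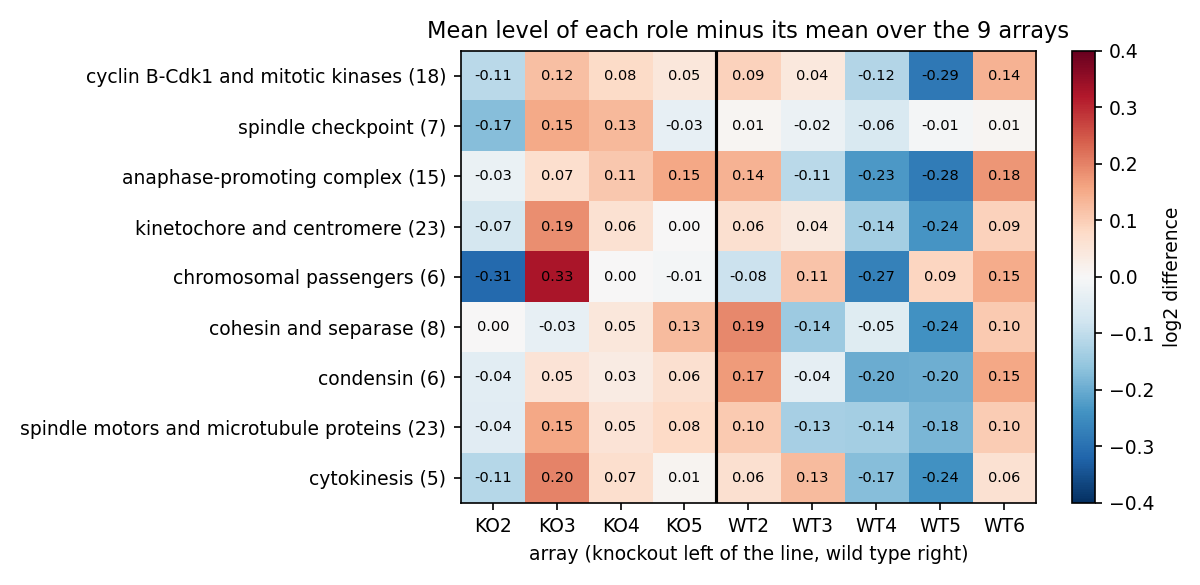
Mean log2 signal of each of the 9 roles on each array minus its mean over the 9 arrays, with the number of genes in brackets and KO arrays left of the line. WT replicate 5 is below its role mean in 8 of 9 roles and WT replicate 4 in all 9, while KO replicate 2 is below it in 8 and level with it in cohesin, and KO replicate 3 above it in 8.

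The 89 members outside these roles split 50 higher and 39 lower in KO, with a median difference of 0.02. They hold 4 of the 5 members with an unadjusted p under 0.05, a share of 4.49%, near the 4.08% of all rows. Map9, a microtubule-associated protein of the spindle, had the smallest p of all members (0.0196) and read 6.08, 5.33, 5.33 and 5.89 in KO, against 5.17, 4.72, 5.27, 4.97 and 5.42 in WT. Only WT replicate 6 reached into the KO range, and the difference was 0.55 ± 0.20 (SE, limma adjusted p 0.916). Its signal was near the floor: it lay above the negative-control median only on KO replicates 2 and 5, and below it on every other array. Ercc6l, the PICH translocase of stretched anaphase DNA, read 8.21, 7.24, 7.42 and 7.04 in KO, against 7.22, 5.51, 6.10, 6.38 and 7.40 in WT. WT replicates 3, 4 and 5 stood below, WT replicates 2 and 6 stood among the KO arrays, and the difference was 0.95 ± 0.40 (SE, unadjusted p 0.0395). Nup43, a nucleoporin of the complex that also sits at kinetochores, read 8.07, 7.78, 8.12 and 7.94 in KO, against 7.90, 5.89, 7.27, 6.72 and 7.84 in WT, a difference of 0.85 ± 0.38 (SE). Without WT replicate 3 alone, its difference was 0.54. Zc3hc1, or NIPA, which takes part in the control of cyclin B1, differed by 0.33 (unadjusted p 0.0392).

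On the lower side of that group, Hormad1, a meiotic chromosome protein of the germ line, had the smallest p: it read 5.38, 5.57, 5.33 and 5.33 in KO, against 5.68, 5.81, 5.85, 6.20 and 5.24 in WT (difference -0.36, unadjusted p 0.0615). WT replicate 6 was the lowest array and the other WT arrays lay above all KO arrays. This row was above the negative-control median on only 6 arrays, and the gene's other row, of mean 2.96, differed by 0.01. Fam83d, which recruits casein kinase to the spindle, differed by -0.19. The 1 member whose groups did not overlap was Lzts2, singled out here after its values were seen, with 6.79, 6.70, 6.82 and 6.82 in KO and 6.89, 7.03, 6.85, 6.85 and 6.85 in WT. The gap between the groups was small, and the difference of -0.11 had an unadjusted p of 0.128. Lzts2, a leucine zipper protein, has been tied to the midzone of the dividing cell.

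The members with the most spread were Txnl4b, Ercc6l, Ruvbl1, Nup43, Nedd9 and Fbxo5. Txnl4b, a thioredoxin-like protein of the spliceosome, read 8.83, 8.41, 7.91 and 8.82 in KO, against 8.76, 6.70, 8.08, 8.86 and 8.80 in WT (difference 0.25), with WT replicate 3 far below the rest. Without that array the difference was -0.13, so 1 array set its sign. Ruvbl1, an ATPase of chromatin remodelling complexes, read 10.01, 9.48, 9.04 and 9.87 in KO, against 9.64, 9.28, 8.80, 7.75 and 9.70 in WT (difference 0.57 ± 0.39, SE, or 0.25 without WT replicate 5). Nedd9, an adhesion scaffold that also activates Aurora A, read 7.04, 5.80, 5.88 and 6.71 in KO, against 6.58, 5.99, 6.32, 5.68 and 7.41 in WT (difference -0.04). In both, KO replicates 2 and 5 and WT replicates 2 and 6 were the 4 highest arrays, which are the arrays of high Hbb-b1. At the other end, the ribosomal protein genes Rps6 and Rpl24, which are among the rows of highest signal, differed by 0.00 and -0.11, with 95% intervals that both lay within -0.31 to 0.16. The members below the negative controls (Ccna1, Hoxa13, Kif2b, Sycp3 and Wee2) differed by -0.07 to 0.03.

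The low and high ends of the member values were unevenly spread over the arrays. WT replicate 5 was the lowest of the 9 arrays for 43 members (21.5%), against 10.6% of all rows, and KO replicate 2 for 42 (21.0%), against 13.1% of all rows. Next came WT replicate 4 with 35 (17.5%, against 8.38%) and WT replicate 3 with 32 (16.0%, against 9.84%). KO replicate 3 was the highest for 34 members (17.0%), against 9.56% of all rows. WT replicate 6, at the other extreme, was the lowest for 5 members (2.5%), against 10.5% of all rows.

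The KO minus WT direction of the mitosis genes depended on which arrays were compared, and these splits were not tested against each other. On the 5 arrays of lower Hbb-b1 (2 KO, 3 WT), the KO mean was higher for 134 of 200 members (67.0%), against 39.9% of all rows, with a median difference of 0.14. Both KO arrays lay above all 3 WT arrays for 53 members (26.5%), against 8.93% of rows, and below them for 11 (5.5%), against 17.2%. On the 4 arrays of highest Hbb-b1 (2 KO, 2 WT), the KO mean was higher for 64 members (32.0%), against 52.8% of rows, and lower for 135, with a median difference of -0.07. Both KO arrays lay below both WT arrays for 54 members (27.0%), against 10.5% of rows. The members thus leaned to KO on the first set of arrays and to WT on the second.

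Marker levels of several lists also separated along that split. The B-cell markers, 12 genes, averaged 5.86 and 5.87 on KO replicates 2 and 5 and 6.09 and 6.74 on WT replicates 2 and 6, against 5.45 to 5.63 on the other 5 arrays. The genes of this list were not alike. Vpreb1 read 9.85 and 10.12 on KO replicates 2 and 5 and 10.16 and 11.6 on WT replicates 2 and 6. On the other 5 arrays it read 5.93 to 7.21. Cd22 read 5.39 to 5.72 on those 4 arrays and 5.65 to 6.04 on the other 5, and Ms4a1 stayed below the negative controls on all 9. The 12 stem and progenitor markers averaged 8.42 and 8.60 on KO replicates 2 and 5 and 8.50 and 8.44 on WT replicates 2 and 6, against 7.95 to 8.35 on the other 5. The 12 interferon-response genes averaged 5.74 to 6.08 on the 4 arrays of highest Hbb-b1 and 5.43 to 5.73 on the other 5. The 7 mast cell and basophil markers ran the other way, with 5.71 to 6.13 on those 4 arrays and 6.17 to 7.11 on the other 5. The erythroid markers as a list (12 genes) did not separate: they averaged 6.66 to 7.09 in KO and 6.58 to 7.27 in WT, and KO replicate 2, of high Hbb-b1, read 6.66 where KO replicate 3 read 6.86. The arrays of mixed Xist and Y-linked signal were 3 of the 4 high Hbb-b1 arrays. The part of these differences in the mitosis result was not tested.

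In the 2-array table, KO replicate 1 averaged 8.36 over the members and WT replicate 1 averaged 8.46, levels that cannot be set against the 9-array table. The KO signal was higher for 59 of 200 members (29.5%), against 51.3% of all rows, and lower for 139, with a median difference of -0.11, against 0.01 over all rows. There is 1 array of each genotype, so no test applies. Among the 23 kinetochore genes 3 were higher in KO, and among the 18 cyclins, kinases and Cdc25 phosphatases also 3. Ndc80 read 9.09 in KO and 9.20 in WT, Aurka 8.09 in KO and 8.43 in WT, and Kif11 10.01 in KO and 10.31 in WT, so all 3 had the opposite sign to the 9-array table. The sign of the difference was the same in both tables for 72 of 200 members (36.0%), against 44.6% of all rows. The B-cell markers averaged 6.70 in KO and 7.65 in WT here, the widest gap of any marker list in this pair.

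**Figure D5:**
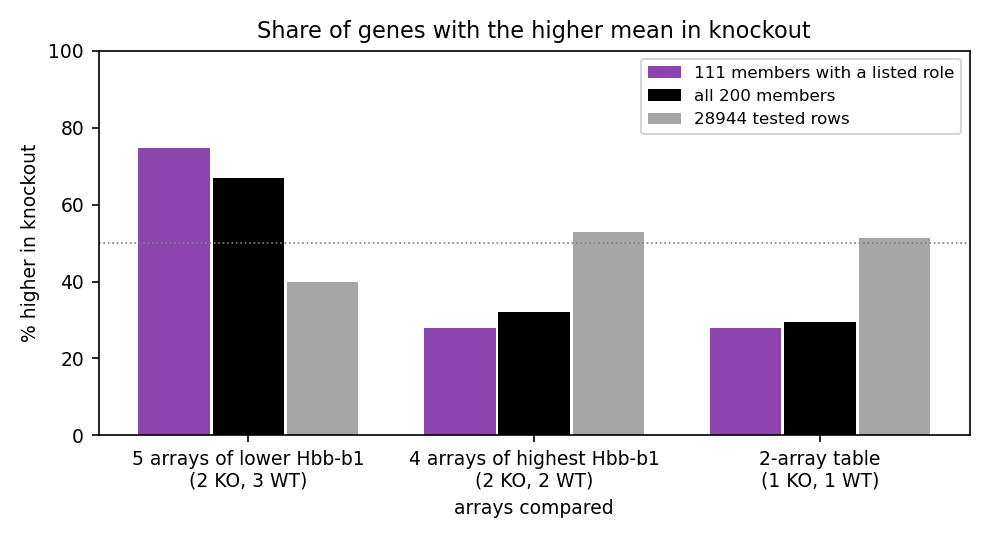
Percent of genes with the higher mean in KO in 3 comparisons of separate arrays, for the 111 members with a listed role, all 200 members and all 28944 tested rows, with a dotted line at an even split. Members were higher in KO for 67.0% on the 5 arrays of lower Hbb-b1, and for 32.0% on the 4 arrays of highest Hbb-b1 and 29.5% in the 2-array table.

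Proliferation genes that the annotation did not place under mitosis had similar values. Of 27 such genes, 19 had the higher mean in KO (median difference 0.07), and none had an unadjusted p under 0.05. Mki67, the antigen Ki-67 of cycling cells, read 9.22, 9.73, 9.98 and 9.52 in KO, against 9.52, 9.36, 9.52, 9.41 and 9.83 in WT (difference 0.08, 95% interval -0.27 to 0.43). KO replicate 2 was the lowest array and KO replicate 4 the highest, so the WT range lay within the KO range. Cdk1, which the rule left out, read 8.40, 8.75, 8.65 and 8.48 in KO, against 8.72, 8.20, 8.64, 8.10 and 8.67 in WT (difference 0.11, 95% interval -0.23 to 0.45). WT replicates 3 and 5 lay below the KO arrays and the other WT arrays within them.

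Genes of other cell cycle phases differed in sign. The 139 DNA replication genes averaged 7.71 ± 0.04 in KO (SD, n = 4) and 7.64 ± 0.12 in WT (SD, n = 5), with 87 higher in KO and a median difference of 0.05, close to the mitosis genes. They had 6 genes (4.32%) at an unadjusted p under 0.05, near the 4.08% of all rows, and 0 past the adjusted threshold. All 6 were higher in KO, where the background was 1.45% of rows higher and 2.63% lower. The 66 histone genes had 13 higher in KO, a median difference of -0.07 and 0 at either threshold. The 15 G1 cyclins and CDK inhibitors had 4 higher in KO and a median difference of -0.07, also with 0 at either threshold. In the 2-array table each of these medians had the opposite sign. There 53 of 139 replication genes (median -0.04), 48 of 66 histone genes (0.18) and 8 of 15 G1 genes (0.02) were higher in KO. The share of all rows was 51.3%. Whether these lists differ from the mitosis genes was not tested.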

How the data were processed

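LSK cells of Klf5 knockout and wild-type mice were measured on Affymetrix Mouse Gene 1.0 ST arrays. The deposited values are log2 signals from RMA, at gene level per the file headers, in a 9-array and a 2-array table that were normalized apart by the authors. Affymetrix Expression Console is named in the submitters' processing notes, with the version not given in the sources used here. Columns were matched to samples through the value table, to within 0.0001. Of 35556 rows, 6612 control rows were left out. Symbols were updated through RefSeq accessions (GRCm38.p6), with 22173 rows matched and 2402 symbols changed, and 197 of the 200 members matched.

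The 9-array table was tested two-sided and with no covariate by limma 3.58.1 (R 4.3.3; lmFit, eBayes). P-values were adjusted by Benjamini-Hochberg over all 28944 rows, the threshold was 0.05, and the fit was tested on simulated data. An unadjusted p under 0.05 is used only for counts. Differences are KO minus WT on the log2 scale, and intervals are 95%. The number of arrays limits the precision. Replicate numbers in the sample titles and descriptions disagree, and same-numbered arrays did not deviate together in every pair (correlations -0.24 to 0.13 by title, -0.05 to 0.40 by description), so they were not treated as pairs.

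Members, roles and lists were chosen with earlier results of these data known. Named genes are the members among 24 core mitosis genes (21 are members: Ccnb1, Ccnb2, Plk1, Aurka, Aurkb, Bub1, Bub1b, Mad2l1, Cdc20, Ube2c, Ndc80, Nuf2, Birc5, Incenp, Smc2, Smc3, Rad21, Ncaph, Kif11, Tpx2 and Pttg1; Cdk1, Ttk and Espl1 are not), the 6 of smallest p in each direction, the 5 of highest and the 5 of lowest mean, and the 6 most variable; other members are named as examples of their role. Alternatives covered scaling, the filter on dim rows, arrays left out, all 11 arrays, a replicate block and the methods' t-test. Among the named genes, 1 of the 5 of highest mean is not reported here.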

Additional observations from a re-analysis of the deposited data

Results flagged for a closer look

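Each group of the 9-array table was screened for a highest or lowest array far from the rest (Dixon's 95% criterion) over the 47 named genes and the 12 mean levels (9 roles, all members, and members with and without a listed role), and 10 of 118 groups met it; chance gives about 1 in 20 groups, or about 6. In KO, Aurkb was high on replicate 2 (7.7987) and Incenp low on replicate 2 (7.8593), in both cases against 3 identical values. In KO, Zw10 was also low on replicate 5 (7.0154) and Wee2 high on replicate 3 (3.7437). In WT, Plk1 (6.7937) and Aurka (7.2294) were low on replicate 5, Smc2 was low on replicate 4 (9.1344), and Rpl24 was high on replicate 6 (12.2496). Also in WT, Sycp3 was high on replicate 5 (3.6674) and Kif2b high on replicate 4 (4.7728), both at levels below the negative controls.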

How the results depend on the processing

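Under 26 alternatives, 0 had a member past the adjusted threshold (lowest limma adjusted p 0.599), more than 50% of members were higher in KO in 25, and the median difference was below 0 in 1. The 5 members at an unadjusted p under 0.05, against 4.08% of all rows, became 9 with median centring, against 3.94%. They became 2 with all 11 arrays and a table term (3.25%), 0 with all 11 and no table term (0.608%) and 2 with the methods' t-test (3.97%). They became 16 without the arrays of both Xist and Y-linked signal (6.39%) and 32 without the 4 arrays of highest Hbb-b1 (7.97%). Within those 4, a choice made after seeing the data, there were 12 (2.51%). The percentages are shares of all rows in the same fit. The cause of these changes was not tested. Leaving out each replicate gave 1 (without WT replicate 4, 2.87% of all rows) to 14 (without WT replicate 6, 5.64%). There were 3 without KO replicate 3 (2.76%) or without WT replicate 5 (3.26%), and 12 without WT replicate 2 (4.96%). The members higher in KO ran from 108 to 140, the median difference from 0.0231 to 0.0928 and the difference of mean levels from 0.0391 to 0.112. The difference of mean levels, 0.07, was 0.18 without the 4 arrays of highest Hbb-b1 and -0.0782 within them, where 64 members were higher in KO and the median was -0.0713. Median centring raised the share higher in KO to 66.5% of members and 54.9% of all rows. A replicate block gave 18 members at an unadjusted p under 0.05 by title number (5.27% of all rows) and 19 by description number (5.80%). Of these, 0 passed the adjusted threshold, and whether these numbers pair the arrays is not known. Of 1075 values of 47 named genes, 122 turned sign and 0 passed the adjusted threshold.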
